A study of Arabidopsis thaliana with 4 samples.

Results

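Stretches of at least 1000 bp between neighbouring nucleosome calls on the chromosome arms of Arabidopsis thaliana are described here. They are called call-free gaps, or gaps, below. They were found separately in each of 4 deposited lists of called nucleosomes: the calls of a list were sorted by position, and every interval of 1000 bp or more between the positions of neighbouring calls was kept where both calls lay on the same arm. Arms were taken as everything over 2.5 Mb from an assumed centromere position, which was 15 Mb for chromosome 1, 3.6 Mb for chromosome 2, 14 Mb for chromosome 3, 4 Mb for chromosome 4 and 12 Mb for chromosome 5. The lists held 4133 such gaps among 1019932 arm intervals, and 1253269 intervals over whole chromosomes. The gaps were chosen by the positions of the calls, so the lengths and numbers of gaps are a description. The libraries were 2 of top1a-2 plants and 2 of Ler plants. top1a-2 is a mutant allele of TOP1α, a DNA topoisomerase I, an enzyme that nicks 1 strand of DNA to release supercoils. All 4 libraries carry the ecotype label Landsberg erecta (Ler), and the titles name the mutant libraries by the gene. The tissue was inflorescences with unopened buds, which mix several cell types, and nothing in the labels gives plant age or says that the libraries of a genotype came from separate plants. Spread between these samples, on which every p-value rests, may thus be technical only.

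In chromatin, DNA is wrapped around histone octamers, and micrococcal nuclease cuts the linkers between them, so that sequenced fragments of nucleosome length mark where octamers sit. Stretches with few nucleosomes are known from active promoters, transcript ends and sites bound by other proteins, where they are usually much shorter than the gaps described here. Topoisomerase I acts on the torsion that builds up when polymerases and remodelling enzymes move along DNA, and torsion affects how easily DNA wraps around histones. The study asked how TOP1α acts on nucleosome density. The lists hold calls and not reads, so a gap without nucleosomes cannot be told apart from a gap in which no reads were placed or in which the caller made no call. The name nucleosome-free was therefore not adopted. Most gaps found in a single list had calls of other lists inside, which follows largely from the sorting of gaps by lists.

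The top1a-2 lists of replicates 1 and 2 held 335395 and 315609 calls over all chromosomes, and the Ler lists of replicates 1 and 2 held 315744 and 286541, the order in which values of a genotype are given throughout. On the arms this was 2.99 and 2.79 calls per kb in the top1a-2 lists, and 2.78 and 2.51 calls per kb in the Ler lists. The Ler replicate 2 stood apart as the list with the fewest calls, and several, not all, of the results that rest on it are given with and without it. Read depth is unknown.

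Gaps made up a very small share of arm intervals, 0.382% and 0.386% in the top1a-2 lists, and 0.349% and 0.516% in the Ler lists. In the lists as deposited, their numbers overlapped between the genotypes. There were 1053 and 992 gaps in the top1a-2 lists, and 896 and 1192 gaps in the Ler lists. The Ler lists were thus the lowest and the highest of the 4 lists, and both top1a-2 lists lay between them. The density was 11.1 ± 0.468 gaps per Mb of arm in top1a-2 and 11.3 ± 2.27 gaps per Mb in Ler (n = 2 each, SD; two-sided exact permutation p = 1), and the smallest p that 2 libraries against 2 allow is 0.33. The difference of -0.233 gaps per Mb depended on which library was left out. It was 1.37 gaps per Mb without the Ler replicate 2 and -1.84 without the Ler replicate 1. Without the top1a-2 replicates 1 and 2 it was -0.564 and 0.0977 gaps per Mb. With each list cut to its 286541 highest-scoring calls, the density averaged 38.3 gaps per Mb in top1a-2 and 18.4 gaps per Mb in Ler. The genotypes did not overlap there (exact permutation p = 0.33). The cut left the whole list of the Ler replicate 2 and took the most calls from the top1a-2 replicate 1. It thus did not treat the lists alike, and the Ler mean joins a trimmed and an untrimmed list. Gaps covered 2.63% and 2.5% of the arms in the top1a-2 lists, and 2.35% and 2.67% in the Ler lists. These shares overlapped between the genotypes, with means of 2.57% ± 0.0935 in top1a-2 and 2.51% ± 0.226 in Ler (n = 2 each, SD; p = 1 by the exact permutation test). The difference was 0.220 percentage points without the Ler replicate 2, -0.0991 without the Ler replicate 1 and -0.00539 without the top1a-2 replicate 1.

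The lists differed most in their short gaps and little in the number of gaps of at least 2000 bp. Gaps of 1000 to under 1500 bp numbered 519 and 487 in the top1a-2 lists, and 400 and 707 in the Ler lists. Gaps of at least 2000 bp numbered 338 and 329 in the top1a-2 lists, and 321 and 318 in the Ler lists. Both top1a-2 lists held slightly more gaps of at least 2000 bp than both Ler lists (exact permutation p = 0.33, the smallest possible). The median gap length was 1521 and 1515.5 bp in the top1a-2 lists, and 1590 and 1319 bp in the Ler lists. The mean of the medians was 63.75 bp higher in top1a-2 (exact permutation p = 1), and the difference was -71.75 bp without the Ler replicate 2. The low median of the Ler replicate 2 went with its many short gaps: among gaps of at least 2000 bp the medians were 3220.5 and 3204 bp in the top1a-2 lists, and 3216 and 3220 bp in the Ler lists. Gaps of at least 5000 bp were few, with 79 in each top1a-2 replicate, and 72 and 63 in the Ler lists. They held 28.6% and 29.7% of all gap length in the top1a-2 lists, and 29.2% and 23.9% in the Ler lists.

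The distribution of interval lengths bent close to the limit of 1000 bp. In the top1a-2 replicate 1, the number of intervals fell from class to class of 100 bp, with 14575 at 500 to 599 bp and 284 at 900 to under 1000 bp, and then flattened, with 128 at 1100 to 1199 bp and 52 at 1500 to 1599 bp. In the Ler replicate 2 the same classes held 27704, 678, 156 and 46 intervals. Within 10 bp under the limit lay 25 and 24 intervals in the top1a-2 lists, and 14 and 45 in the Ler lists. Within 10 bp above it, starting at the limit itself, lay 14 and 19 intervals in the top1a-2 lists, and 11 and 40 in the Ler lists. The calls on both sides of an interval changed over the same lengths. Their median score, the confidence value that the authors' caller gave each call, peaked beside intervals between 500 and 799 bp and was lower beside longer ones. Beside intervals of 700 to 799 bp it was 0.975 and 1.31 in the top1a-2 lists, and 1.58 and 1.59 in the Ler lists. Beside intervals of 1400 to under 1500 bp it was 0.321 and 0.279 in the top1a-2 lists, and 0.309 and 0.242 in the Ler lists. The Ler replicate 2 reached the low level at longer intervals than the others, with a median score of 1.13 beside intervals of 1000 to 1099 bp.

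**Figure D1:**
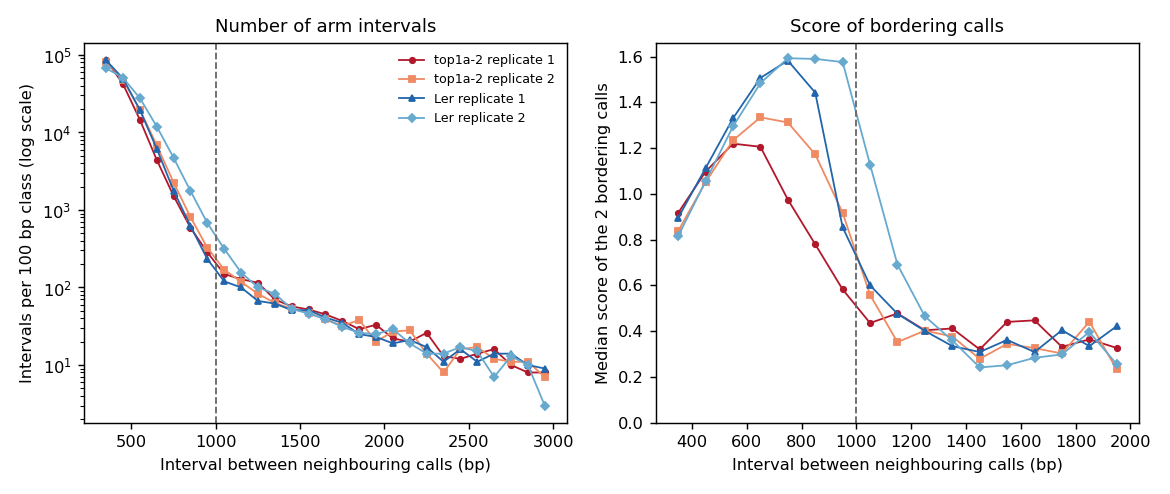
Number of arm intervals per class of 100 bp (left, log scale) and median score of the 2 calls that border them (right), against interval length in bp, for the 4 libraries; the dashed line marks 1000 bp. The steep fall in number ends near 1000 bp in each library, and the score of the bordering calls drops between about 700 and 1400 bp.

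Gaps were then matched between lists by a reciprocal overlap of at least 50%. The 4133 gaps formed 1740 gap loci, a locus being a set of gaps linked by such overlaps. Of these, 553 were recurring gaps, in which the gaps of all 4 lists overlapped reciprocally in every pair. They were 31.8% of the loci, and they held 52.5% and 55.7% of the gaps of the top1a-2 lists, and 61.7% and 46.4% of the gaps of the Ler lists. Without the Ler replicate 2, 612 gaps recurred in the other 3 lists. A further 57 loci had a gap in all 4 lists linked only in a chain. At the other end, 753 loci were seen in 1 list, with 189 and 133 in the top1a-2 lists, and 90 and 341 in the Ler lists. The Ler replicate 2 alone gave the most of these.

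Loci of exactly 2 lists were few, and each of the 6 pairs of lists held 20 to 48 of them. The top1a-2 pair held the most, and the Ler pair held fewer than all mixed pairs but 1. There were 48 loci in both top1a-2 lists and neither Ler list, which is 2.76% of all loci, and 30 loci in both Ler lists and neither top1a-2 list, which is 1.72%. With all lists cut to the same number of highest-scoring calls, these loci numbered 604 for top1a-2 and 14 for Ler. That cut took no calls from the Ler replicate 2 and the most from the top1a-2 replicate 1. A gap opened by the cut could thus not arise in the Ler replicate 2, so these counts do not compare like lists. Pairs of a top1a-2 and a Ler list gave 36 and 43 loci for the top1a-2 replicate 1, paired with the Ler replicates 1 and 2, and 20 and 41 loci for the top1a-2 replicate 2. Pairwise matching gave the same picture. Of the gaps of the top1a-2 replicate 1, 70.3% were matched in the other top1a-2 list, and 66.8% and 68.7% in the Ler lists. Of the gaps of the Ler replicate 1, 78.5% and 77.9% were matched in the top1a-2 lists, and 77.1% in the other Ler list.

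**Figure D2:**
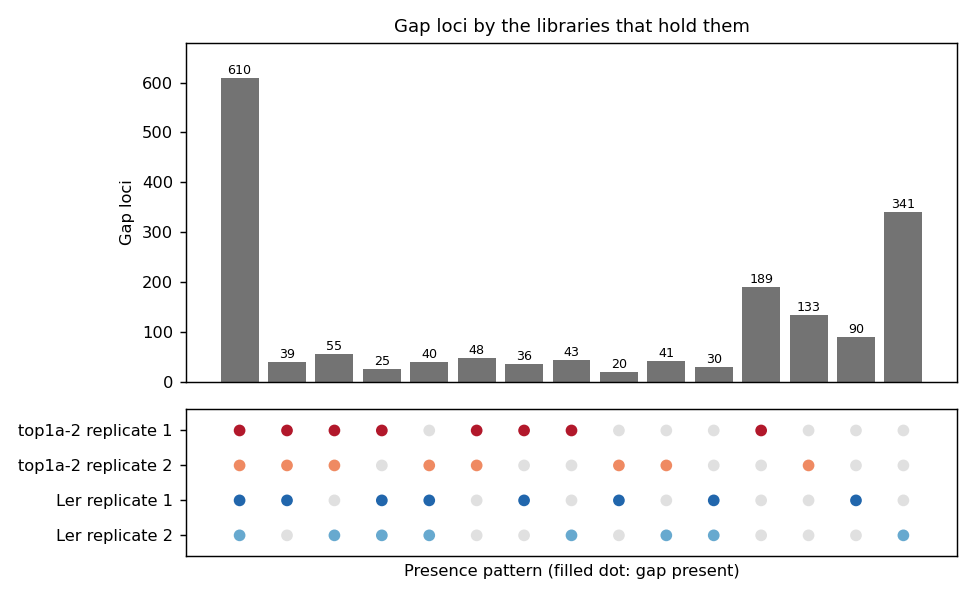
Number of gap loci for each combination of libraries that hold them; filled dots under a bar mark the libraries with the gap. The 610 loci in all 4 libraries (553 of them overlapping reciprocally in every pair) and the 341 loci of Ler replicate 2 alone are the 2 tallest bars, and the 6 combinations of 2 libraries hold 20 to 48 loci each.

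The stretch common to all 4 lists had a median of 1576 bp over the 553 recurring gaps, with quartiles of 1217 and 2653 bp and a range of 738 to 35566 bp. Together these stretches covered 1.39 Mb, or 1.51% of the arms. The 50 longest, of 5000 bp or more, held 32.4% of that length. The longest recurring gap was also the longest gap of each list. It lay on chromosome 4, with a common stretch from 10704577 to 10740143 in the coordinates of the lists. Its length was 35959 and 35792 bp in the top1a-2 lists, and 35782 and 35594 bp in the Ler lists. The position of its left border differed by 52 bp over the 4 lists, and that of its right border by 393 bp. Its left border call had a score of 0.548 and 0.507 in the top1a-2 lists, and 0.503 and 0.560 in the Ler lists. That call was short, with a size of 57.8 and 73.7 bp in the top1a-2 lists, and 70.8 and 74.7 bp in the Ler lists. All 4 lists thus placed a short call of below-median score within 52 bp of the same place.

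The next 4 recurring gaps by common stretch all lay on chromosome 1. The second, from 8751187 to 8784449, was 33319 and 33293 bp long in the top1a-2 lists, and 33309 and 33337 bp in the Ler lists. Over the 4 lists its left border differed by 31 bp and its right border by 72 bp, little beside the length of the gap. The third, from 8718622 to 8743391, lay just before the second and was 24891 and 24772 bp long in the top1a-2 lists, and 24896 and 24829 bp in the Ler lists. The fourth and the fifth neighboured each other in the same way, from 21442453 to 21461659 and from 21422241 to 21441197. The fourth was 20067 and 19216 bp long in the top1a-2 lists, and 19328 and 19316 bp in the Ler lists. The fifth was 19594 and 18956 bp long in the top1a-2 lists, and 20196 and 19064 bp in the Ler lists. No annotation of the build of the lists was used, so what these stretches contain is not analysed here.

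Many recurring gaps lay close to another one. Of the 553, 315 (57.0%) had another recurring gap within 10 kb, and they formed 111 clusters. Clusters of 3 or more gaps numbered 45, and the 4 with the most common length are given here. The largest by number of gaps lay on chromosome 4 from 10696236 to 10774354 and held 10 recurring gaps over 78.1 kb, including the longest one. Its common stretches took up 77.1% of that span, and the calls that separated them numbered 47 and 41 in the top1a-2 lists, and 48 and 51 in the Ler lists. On chromosome 1, from 21415132 to 21502740, 8 recurring gaps took up 81.5% of 87.6 kb, with 28 and 34 calls in the top1a-2 lists, and 29 and 31 in the Ler lists. On the same chromosome, from 8718622 to 8789896, 4 recurring gaps took up 89.9% of 71.3 kb, with 20 calls in each top1a-2 replicate and 19 in each Ler replicate. On chromosome 5, from 20157200 to 20223780, 6 recurring gaps took up 71.5% of 66.6 kb, with 17 calls in each top1a-2 replicate, and 18 and 19 calls in the Ler lists. In these 4 clusters the numbers of calls of the genotypes overlapped or lay 1 call apart at the nearest. Single calls with a gap on either side numbered 192 and 169 in the top1a-2 lists, and 167 and 221 in the Ler lists, which was 9.31% to 10.3% of all calls that border a gap.

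The density of gaps varied between arms in a similar way in all lists. It was highest on the top arm of chromosome 2, which is 1.1 Mb long as defined here and borders a nucleolus organizer, where ribosomal RNA genes are repeated in tandem. There it was 33.6 and 35.5 gaps per Mb in the top1a-2 lists, and 29.1 and 36.4 gaps per Mb in the Ler lists. The top arm of chromosome 4, which borders the other nucleolus organizer, followed with 19.3 and 18.0 gaps per Mb in the top1a-2 lists, and 14.7 and 22.0 gaps per Mb in the Ler lists. These short arms lie wholly near a pericentromere or a chromosome end and held 17 and 14 of the 553 recurring gaps. Of the 8 long arms, the bottom arm of chromosome 5 had the most recurring gaps, with 8.39 per Mb, and the top arm of chromosome 5 and the bottom arm of chromosome 2 had the fewest, with 4.00 and 4.23 per Mb. In each of the 10 arms the gaps per Mb of the genotypes overlapped, and no test was made by arm.

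The borders of recurring gaps were placed alike by lists of the same and of different genotype. Over 1106 borders, the position differed by a median of 152 bp between the outermost of the 4 lists, and 17.3% of borders lay within 50 bp in all 4. For pairs of lists the median distance was 57.0 bp between the top1a-2 lists and 54.5 bp between the Ler lists. It was 51 to 60 bp for the 4 pairs of a top1a-2 and a Ler list. Calls of the other 3 lists gathered at the border of a recurring gap. Within the first 50 bp outside it their density was 5.79 and 5.77 calls per kb for gaps of the top1a-2 lists, and 5.68 and 5.65 calls per kb for gaps of the Ler lists. From 500 to 1500 bp outside it was 2.21 and 2.21 calls per kb for gaps of the top1a-2 lists, and 2.18 and 2.25 calls per kb for gaps of the Ler lists. These values were below the mean density of the same other lists over the arms, 2.69 to 2.85 calls per kb. Why was not tested. Between 200 and 500 bp inside, the density of calls of the other 3 lists was lower still. There it was 0.232 and 0.178 calls per kb for gaps of the top1a-2 lists, and 0.195 and 0.214 calls per kb for gaps of the Ler lists. The overlap that defines a recurring gap fixes part of this pattern. It does not fix the density further outside. There, classes of 50 bp from 100 to 1500 bp ranged only from 1.83 to 2.55 calls per kb, and no repeated maxima stood out. Borders differed between pairs of lists by medians of 51 to 60 bp, which can blur the maxima of a phased array. Its absence can therefore not be read from this profile.

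**Figure D3:**
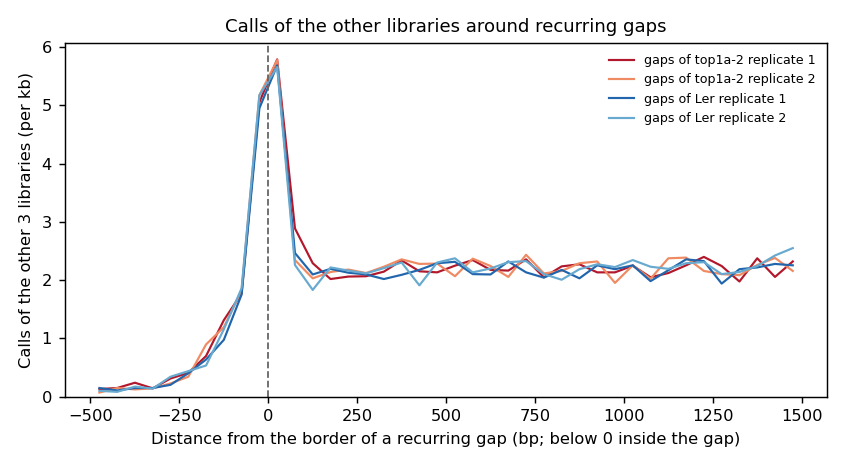
Mean density of calls of the other 3 libraries, in calls per kb and classes of 50 bp, against the distance from the borders of the 553 recurring gaps (below 0 inside the gap, above 0 outside); 1 line per library whose gaps were used. All 4 lines peak at the border near 5.7 calls per kb, fall towards 0.2 inside the gap and stay near 2.2 outside. The mean density of the same other libraries over the arms was 2.69 to 2.85 calls per kb.

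The calls that border a gap were compared with the other calls of the arms. Fuzziness, size, score and votes took no part in choosing the gaps. Border calls numbered 1914 and 1815 in the top1a-2 lists, and 1625 and 2163 in the Ler lists. They had low scores and were short in every list. In score, border calls had a median of 0.415 and 0.379 in the top1a-2 lists, and 0.415 and 0.479 in the Ler lists. The other arm calls had a median score of 0.828 and 0.791 in the top1a-2 lists, and 0.866 and 0.844 in the Ler lists. The mean difference was -0.410 ± 0.0351 (SD, n = 4 libraries), negative in 4 of 4 (exact two-sided sign-flip p = 0.13, the smallest that 4 libraries allow, adjusted p = 0.136 over 12 such tests). The median size of border calls came to 129 and 126 bp in the top1a-2 lists, and 124 and 130.1 bp in the Ler lists, against 145, 143, 145 and 143 bp for the other arm calls of the same 4 lists. The mean difference was -16.6 ± 3.56 bp (SD, n = 4 libraries; exact sign-flip p = 0.13, adjusted p = 0.136). Both differences were several times the spread between libraries, and without the Ler replicate 2 they were -0.425 and -18.0 bp. The size difference was -0.942 bp, and that in score -0.296, when the lowest-scoring 25% of each list was left out before the gaps were found. With means in place of medians the score difference was -0.146.

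Border calls became shorter as gaps became longer. Beside gaps of 1000 to under 1500 bp the median size was 132 and 129 bp in the top1a-2 lists, and 126 and 135 bp in the Ler lists. Beside gaps of at least 2000 bp it was 110.4 and 115 bp in the top1a-2 lists, and 108 and 110.1 bp in the Ler lists. Beside intervals of 750 to under 1000 bp, just outside the rule, it was 142 and 143 bp in the top1a-2 lists, and 145 and 144 bp in the Ler lists. The classes did not overlap in any list or between lists. The votes of the border calls leaned away from the gap. Votes are the caller's values for the support from forward and reverse reads, and a forward vote was taken to come from the left edge of a call and a reverse vote from its right edge, as fragments are read from their ends. The side that faced the gap held a median of 45.3% and 44.4% of the votes in the top1a-2 lists, and 44.2% and 46.6% in the Ler lists, against an even 50%. The mean difference was -4.88 ± 1.12 percentage points (SD, n = 4 libraries; exact sign-flip p = 0.13, adjusted p = 0.136). The lean was not confined to gaps. Beside intervals of 750 to under 1000 bp the share was 48.6% and 47.3% in the top1a-2 lists, and 48.5% and 48.2% in the Ler lists. Beside intervals under 200 bp it was 46.9% and 49.3% in the top1a-2 lists, and 46.9% and 49.9% in the Ler lists, so that both replicate 1 lists were near the value of border calls in the Ler replicate 2. The mean difference of border calls was -1.84 percentage points without the lowest-scoring 25% of calls. Beside gaps of at least 2000 bp the share was 42.8% and 42.4% in the top1a-2 lists, and 41.9% and 43.5% in the Ler lists.

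Fuzziness, the spread of a call's position in bp, gave no steady difference. Averaged over border calls it was 38.8 and 39.7 bp in the top1a-2 lists, and 39.9 and 40.6 bp in the Ler lists. Averaged over the other arm calls it came to 37.6 and 38.8 bp in the top1a-2 lists, and 39.3 and 39.7 bp in the Ler lists. Border calls were fuzzier by 0.889 ± 0.201 bp (SD, n = 4 libraries; exact sign-flip p = 0.13, adjusted p = 0.136). With medians in place of means the difference was -0.500 bp, and against calls beside intervals of 500 to under 1000 bp the mean difference was -1.98 bp. The excess over other arm calls came to 1.04 ± 0.120 bp in top1a-2, against 0.742 ± 0.141 bp in Ler (n = 2 each, SD), with no overlap between the genotypes (exact permutation p = 0.33, adjusted p = 1 over 8 comparisons), and the difference between the genotypes was 0 with medians.

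Gaps seen in all 4 lists and gaps seen in 1 list had different border calls. For this the loci were sorted by the number of lists that hold them. Gaps in all 4 lists are the same loci in each library, and the sorting used all 4 lists. The 4 differences are thus not independent, though the sign-flip tests treat them so. Border calls of gaps in all 4 lists had a median score of 0.382 and 0.327 in the top1a-2 lists, and 0.353 and 0.291 in the Ler lists. Border calls of gaps in 1 list had a median score of 0.469 and 0.862 in the top1a-2 lists, and 0.883 and 1.67 in the Ler lists. The top1a-2 replicate 1 showed the smallest difference and the Ler replicate 2 the largest. Gaps in 1 list were mostly short, with medians of 1140 and 1077 bp in the top1a-2 lists, and 1095.5 and 1071 bp in the Ler lists, so the comparison was repeated among gaps of 1000 to under 1500 bp. Within that range the gaps of all 4 lists were still longer, with medians of 1266 and 1241 bp in the top1a-2 lists, and 1264 and 1267 bp in the Ler lists. Gaps of 1 list had medians of 1122 and 1072 bp in the top1a-2 lists, and 1089 and 1068 bp in the Ler lists. Score and size of border calls also fell with length over this range, so length and sharing were not fully separated. There the score of border calls was lower for gaps in all 4 lists than for gaps in 1 list by 0.114 to 1.41, in 4 of 4 libraries (exact sign-flip p = 0.13, adjusted p = 0.136). Among those gaps the border calls were also shorter where all 4 lists had the gap, at 118 and 113 bp in the top1a-2 lists, and 119 and 113 bp in the Ler lists. Where 1 list had the gap they measured 139.7 and 139 bp in the top1a-2 lists, and 138 and 144 bp in the Ler lists, close to the 143 to 145 bp of the other arm calls. The difference was -24.6 ± 5.26 bp (SD, n = 4 libraries; exact sign-flip p = 0.13, adjusted p = 0.136). Fuzziness was 3.01 ± 1.57 bp lower in gaps of all 4 lists in the same comparison (SD, n = 4 libraries; exact sign-flip p = 0.13, adjusted p = 0.136). The gap-side share of votes differed by -2.32 percentage points, lower in 3 of 4 libraries and 0.614 higher in the other (exact sign-flip p = 0.25, adjusted p = 0.25).

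The other lists had calls inside most gaps seen in 1 list. Over all gaps, leaving out 50 bp at each border, the other 3 lists had 0.469 and 0.396 calls per kb inside gaps of the top1a-2 lists, and 0.329 and 0.553 calls per kb inside gaps of the Ler lists. Over the whole arms, the mean density of the same other 3 lists was 2.69 and 2.76 calls per kb in the comparison for the top1a-2 lists. It was 2.76 and 2.85 calls per kb in that for the Ler lists. Inside gaps seen in 1 list their density was 1.65 and 1.76 calls per kb for the top1a-2 lists, and 1.54 and 2.12 calls per kb for the Ler lists. The last value is for the 341 gaps that only the Ler replicate 2 had. Gaps in 1 list with no call of any other list inside numbered 1 and 0 in the top1a-2 lists, and 5 and 7 in the Ler lists. Among gaps in all 4 lists they numbered 172 of 618 and 173 of 616 in the top1a-2 lists, and 202 of 616 and 204 of 617 in the Ler lists. The sorting by lists fixes this order, and it is given as a description.

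**Figure D4:**
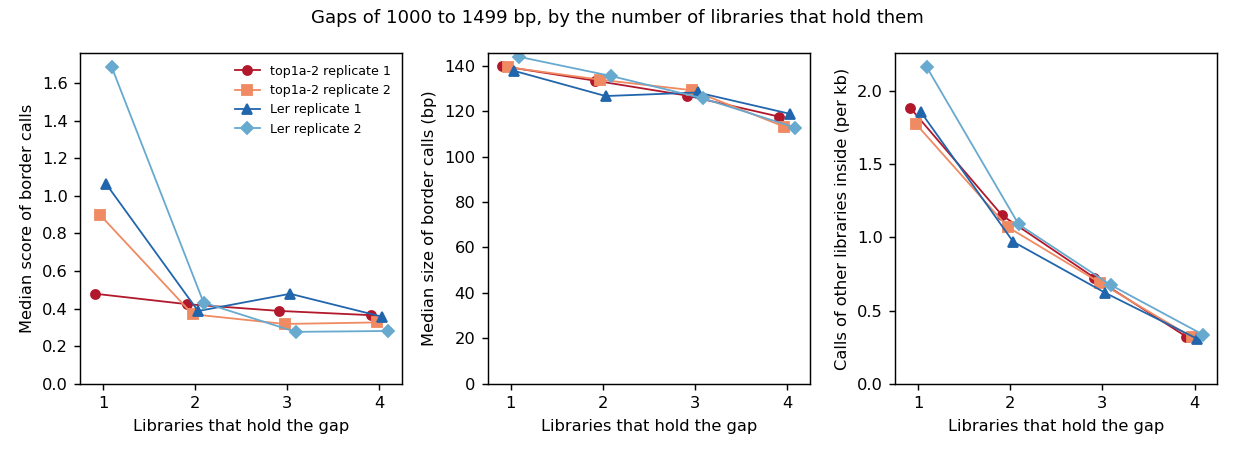
Median score (left) and median size in bp (middle) of the calls that border gaps of 1000 to under 1500 bp, and calls of the other 3 libraries inside them per kb (right), against the number of libraries that hold the gap; 1 line per library. Border calls are shorter in each library for gaps in all 4 libraries than for gaps in 1, the score of Ler replicate 2 is 1.69 for gaps in 1 library and 0.281 for gaps in all 4, and calls inside decline as more libraries hold the gap, as the sorting requires.

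Gaps of 1 genotype only were short for the most part, and those of Ler often overlapped longer gaps of top1a-2. The 48 loci of top1a-2 only had a median common stretch of 1056 bp, and the 30 loci of Ler only 1079.5 bp. For 3 of the 48 top1a-2 loci and for 15 of the 30 Ler loci, both lists of the other genotype had an interval of 1000 bp or more at the locus, which was too long or too shifted for the reciprocal overlap. Where neither list of the other genotype had such an interval, which was so for 44 top1a-2 loci and 14 Ler loci, the median of the widest interval there was 801 bp in the Ler lists and 826.5 bp in the top1a-2 lists. For 17 of those 44 loci and 9 of those 14, at least 1 list of the other genotype came to 900 bp or more. With 1 library left out the rule asks for less, and the loci numbered 90 to 242 for top1a-2 and 54 to 374 for Ler. The calls that the other genotype had inside were mostly of low score. At the top1a-2 loci, the Ler lists had 150 calls with a median score of 0.131, and 92.7% of them were under the lower quartile of their own list. At the Ler loci, the top1a-2 lists had 72 calls with a median score of 0.305, and 79.2% of them were under that quartile. These calls were counted over the whole common stretch, with no margin at its ends, unlike those inside gaps given next. Low scores were not particular to these loci. Inside gaps of all 4 lists, without 50 bp at each border, the median score of other lists' calls was low too. It was 0.165 and 0.203 for the top1a-2 lists, and 0.183 and 0.224 for the Ler lists. Inside gaps of 1 list it was 0.176 and 0.407 for the top1a-2 lists, and 0.505 and 0.629 for the Ler lists.

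The 3 longest loci of each genotype show both forms. The longest of top1a-2 only, on chromosome 1 from 20976751 to 20984744, was a gap of 8185 and 7993 bp in the top1a-2 lists. The Ler lists had no call in that stretch, and it was part of a gap of 23189 and 23252 bp in the Ler lists. The second, on chromosome 3 from 20106643 to 20108553, was 1939 and 1910 bp long in the top1a-2 lists and overlapped a wider interval of 4234 and 4137 bp in the Ler lists. In the third, on chromosome 1 from 8198224 to 8199832, the top1a-2 lists had gaps of 1673 and 1611 bp, and each Ler list had 2 calls in the common stretch. Their scores were 0.0960 and 0.0427 in the Ler replicate 1, and 0.0469 and 0.663 in the Ler replicate 2. The call of 0.663 lay 0.793 kb from the centre of the stretch. It was thus next to the border call of the top1a-2 replicate 2, at 0.804 kb. Of these 3 loci, the third was the only one where the Ler lists had no interval of 1000 bp. The 3 longest of Ler only lay on chromosome 1 from 21472096 to 21474892, on chromosome 5 from 17926618 to 17929269, and on chromosome 4 from 10216138 to 10218522. At these loci the widest interval was 8963 and 6580 bp, then 8269 and 8277 bp, then 6363 and 6658 bp in the top1a-2 lists. The Ler gaps there were 2932 and 2796 bp, then 2699 and 2739 bp, then 2440 and 2384 bp. In each of these 3, a longer gap of the top1a-2 lists reached over the Ler gap or into it.

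**Figure D5:**
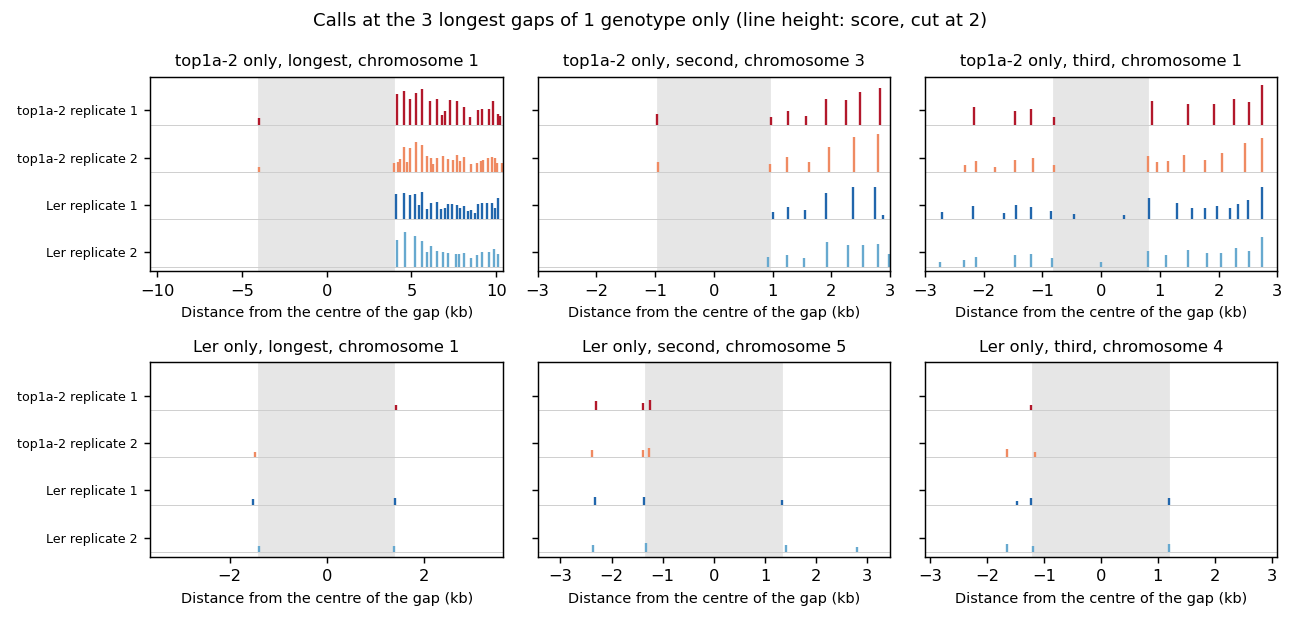
Calls of the 4 libraries around the 3 longest gaps of top1a-2 only (upper row) and of Ler only (lower row), against the distance from the centre of the gap in kb. Each vertical line is a call, its height is the score up to 2, and the shaded stretch is common to both libraries of the genotype. In 5 of the 6 panels each library of the other genotype has at most 1 call in the shaded stretch. In the third top1a-2 panel the Ler libraries have calls of below-median score inside it, 1 of them next to its edge.

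The length of the recurring gaps was set beside the genotype as well. Of the 553, 112 (20.3%) were longer in both top1a-2 lists than in both Ler lists, and 62 (11.2%) were shorter in both. The rule used these lengths, and no test was made. By the order of the labels alone, 1 of 6 assignments makes both top1a-2 lists the longer, and 1 of 6 makes them the shorter. No such share was computed over other arm intervals, so none can be set beside these counts. With 1 library left out, longer and shorter recurring gaps numbered 204 and 166 without the top1a-2 replicate 1, and 219 and 148 without the top1a-2 replicate 2. They numbered 198 and 153 without the Ler replicate 1, and 210 and 150 without the Ler replicate 2. The ratio of longer to shorter gaps was smaller in each of these than with all 4 lists. With a list left out the rule asks for less, so the smaller values do not show how steady the ratio is. The median over recurring gaps of the mean length in top1a-2 minus that in Ler was 20.5 bp. It was 8 bp without the top1a-2 replicate 1 and 32 bp without the Ler replicate 2. In all, 8 measures of gaps and their border calls were compared between the genotypes, and the lowest adjusted p of the exact permutation tests was 1.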

How the data were processed

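Per the labels' protocols, nuclei from ground inflorescences were digested with micrococcal nuclease, the band of about mononucleosomal length was taken from a gel, and libraries were sequenced on a HiSeq2000. A call has a position, fuzziness and size in bp, votes on the forward and the reverse strand, and a confidence score, per the file headers. Scores and votes are values of the authors' caller and no read counts. Aligner, caller, thresholds, scaling and build: not given in the sources used here. Final calls lay 356 to 439 kb before the last genes of a TAIR10.1 table, so the table was not used for positions and no genes or sequences are given.

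Gaps, loci and border calls were computed with Python 3.11.15, pandas 2.3.3 and networkx 3.6.1, as described in the text, and the procedure was checked on simulated lists with planted gaps. Groups came from the titles and the design text. Genotypes were compared with the exact permutation test over 6 assignments of the labels, and border calls with other arm calls with the exact sign-flip test over 4 libraries. Benjamini-Hochberg adjustment was made within each family. A threshold of 0.05 could not be reached by either test. The gaps, and the measures and lists, were chosen with earlier results of these data known. Regions were named by rule: the 5 longest recurring gaps, the 3 longest of each genotype only and the longest of each list. Clusters were chosen after their values were seen.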

Additional observations from a re-analysis of the deposited data

How the results depend on the processing

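Of 191 alternatives, 121 kept the direction or came within 1.5 times of the count. Both numbers include the alternatives with the replicate number as a block, whose differences were the same by construction. Lower score, shorter size and fewer gap-side votes of border calls kept their direction in all alternatives run for them, with mean differences of -0.786 to -0.146, -29.7 to -0.942 bp and -7.35 to -1.84 percentage points. Genotype differences (top1a-2 minus Ler) turned as follows, and the cause was not tested. Gaps per Mb (-0.233) became 0.363 between edges of calls, 0.315 with a minimum of 1500 bp, 0.152 with 2000 bp, 1.24 without scores below the lower quartile and 19.9 with equal numbers of top-scoring calls, which trims all lists but the Ler replicate 2, and ranged from -1.84 to 1.37 without 1 library. Median length (63.75 bp) became -59.0 with 1500 bp, -5.75 with 2000 bp, -20.0 without low scores and -31.75 with equal numbers (-71.75 to 199 without 1 library). The percent of arms in gaps (0.0607) became -0.000358 on arms over 3.5 Mb away and -0.129 without low scores (-0.0991 to 0.220 without 1 library). The border difference in score (-0.00456) became 0.0654 between edges, 0.0885 against calls beside 500 to under 1000 bp, 0.0485 with equal numbers, 0.0789 with 1500 bp, 0.0746 with 2000 bp and 0.0430 without low scores (-0.0475 to 0.0383 without 1 library), that in size (0.548 bp) -0.172 without low scores (-3.78 to 4.88 without 1 library), and that in fuzziness (0.294 bp) -0.299 against calls beside 500 to under 1000 bp, -1.07 with equal numbers, -0.103 without low scores and 0 with medians. Gap-side votes (-0.529) became 0.617 with equal numbers and 0.0387 without low scores (-1.76 to 0.698 without 1 library), and calls of other lists inside, in percent of their arm density (0.244), -0.846 on arms over 3.5 Mb away and -1.47 without low scores (-3.26 to 4.45 without 1 library).

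Over the 4 libraries, the excess fuzziness of border calls (0.889 bp) became -1.98 against calls beside 500 to under 1000 bp, -0.851 with equal numbers, -0.500 with medians and -1.80 without low scores. Calls inside gaps were 15.8% of the arm density, and 9.69% between edges, 29.8% with equal numbers, 8.59% with 1500 bp, 6.76% with 2000 bp and 35.9% without low scores. The 553 recurring gaps became 319 with 1500 bp, 207 with 2000 bp, 320 at an overlap of 80% and 2730 without low scores. The 48 loci of top1a-2 only became 604 with equal numbers, 25 with 1500 bp, 13 with 2000 bp and 616 without low scores (90 to 242 without 1 library). The 30 loci of Ler only became 19 between edges, 14 with equal numbers, 16 with 1500 bp, 8 with 2000 bp, 13 with no overlap of even 1 bp, 19 and 59 at overlaps of 25% and 80%, 14 where the other genotype had no interval of 1000 bp (added after seeing the data), and 525 without low scores (54 to 374 without 1 library). Leaving out a library relaxes these rules. With the replicate number as a block, the differences were the same by construction (-0.233 gaps per Mb, 2.57% and 2.51% of the arms) and the smallest p was 0.500. The gap densities of same-numbered lists deviated with r = -0.0840 over 593 windows of 100 kb, and the labels tie no samples by number. Other properties went with the number: arm calls had a median size of 144.7 bp (top1a-2) and 144.9 bp (Ler) in the replicates 1, and 142.9 bp (top1a-2) and 142.7 bp (Ler) in the replicates 2. Unknown read depth limits all values.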
